A study of Mus musculus with 6 samples.

Results

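Solute carriers are the large class of membrane proteins, named Slc, that move amino acids, sugars, nucleosides, metals, ions and metabolites across the plasma membrane and the membranes of mitochondria and other organelles. Their transcripts were taken from an array study of mouse fetal liver as every probe set that the platform annotation gave to 1 gene symbol starting with Slc, apart from Slc2a1, Slc2a3, Slc16a3, Slc4a1, Slc11a2 and Slc40a1. These were 182 probe sets of 150 genes, among 10833 probe sets of 8251 genes with 1 symbol on the array. The livers came from 6 untreated embryos at embryonic day 12.5, bred from Rb heterozygous 129sv mice, of which 3 were Rb null and 3 were wild type. One array was hybridised per embryo, so n = 3 embryos per genotype throughout, and the number of arrays limits the precision.

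Some carriers work by facilitated diffusion down a gradient, and others couple the solute to sodium, protons or a counter-transported solute. In the fetal liver, erythroblasts draw on them for glycine, iron, copper and zinc for haem and haemoglobin synthesis and for nucleosides, and hepatoblasts use them to exchange sugars, amino acids and organic ions with the blood. Members were grouped by substrate into 28 genes for amino acids, 20 mitochondrial carriers of the Slc25 family, 16 for metals, 2 for nucleosides, 19 for ions and 65 others. The last group holds sugar, nucleotide sugar, lipid, vitamin and organic ion carriers. It also holds a few proteins that carry an Slc symbol without being carriers, such as the scaffold proteins Slc9a3r1 and Slc9a3r2.

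The promoter windows of the 2 largest rises and the 2 largest falls among the 12 called Slc genes (adjusted p below 0.05) are shown. That of the copper carrier gene Slc31a1 was added because its dimmer probe set had the largest change in size of the 94 tested Slc probe sets. Each window runs from 250 bases before to 50 bases after the transcript start in RefSeq on mouse build GRCm38.p6, taking the most upstream start of each gene. They lie at chr14:54913083-54913382 on the minus strand for Slc22a17, chr15:97055907-97056206 on the minus strand for Slc38a4, chrX:8271131-8271430 on the plus strand for Slc38a5, chr11:95384606-95384905 on the plus strand for Slc35b1 and chr4:62360451-62360750 on the plus strand for Slc31a1. Capitals mark matches, on either strand, to a GATA element (AGATAA or TGATAA) or a hypoxia element (ACGTG or GCGTG), which were searched together with E2F elements (TTTCCCGC, TTTGGCGC, TTTGCCGC or TTTCGCGC) and the amino acid response core TGATGNAAN.
Slc22a17: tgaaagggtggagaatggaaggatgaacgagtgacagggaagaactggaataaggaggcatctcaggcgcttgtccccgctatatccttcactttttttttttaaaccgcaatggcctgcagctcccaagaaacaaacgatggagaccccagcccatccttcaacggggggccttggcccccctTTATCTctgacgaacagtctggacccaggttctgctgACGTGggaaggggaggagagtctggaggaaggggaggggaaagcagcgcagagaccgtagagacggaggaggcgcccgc
Slc38a4: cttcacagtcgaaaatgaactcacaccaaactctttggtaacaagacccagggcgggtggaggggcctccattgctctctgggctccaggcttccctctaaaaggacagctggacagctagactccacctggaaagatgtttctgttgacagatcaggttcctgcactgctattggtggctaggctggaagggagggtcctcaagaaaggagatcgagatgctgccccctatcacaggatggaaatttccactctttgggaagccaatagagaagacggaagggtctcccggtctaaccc
Slc38a5: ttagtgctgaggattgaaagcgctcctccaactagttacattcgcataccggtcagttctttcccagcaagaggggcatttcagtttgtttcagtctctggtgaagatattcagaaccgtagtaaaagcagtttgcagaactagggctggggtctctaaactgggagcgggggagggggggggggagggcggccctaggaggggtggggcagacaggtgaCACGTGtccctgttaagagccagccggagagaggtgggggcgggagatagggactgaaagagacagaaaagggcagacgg
Slc35b1: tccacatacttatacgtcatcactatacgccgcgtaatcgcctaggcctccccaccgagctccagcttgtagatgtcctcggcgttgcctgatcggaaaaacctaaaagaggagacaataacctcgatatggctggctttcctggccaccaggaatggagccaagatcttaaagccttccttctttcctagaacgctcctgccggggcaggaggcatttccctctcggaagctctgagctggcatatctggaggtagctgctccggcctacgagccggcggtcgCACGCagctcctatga
Slc31a1: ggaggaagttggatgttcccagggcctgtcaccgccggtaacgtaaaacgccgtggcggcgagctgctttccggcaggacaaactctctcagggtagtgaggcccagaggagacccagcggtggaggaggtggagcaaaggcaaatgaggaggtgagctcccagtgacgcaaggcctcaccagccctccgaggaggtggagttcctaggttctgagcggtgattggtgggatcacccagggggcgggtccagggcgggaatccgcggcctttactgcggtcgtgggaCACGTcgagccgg
The Slc38a5 run of capitals is a palindrome and matches the hypoxia element on both strands. Of the 12 called Slc genes, 11 had a window in the RefSeq table. A GATA element stood in 2 of these 11 windows (Slc22a17 and Slc2a2) and in 18.9% of the windows of 27025 genes. A hypoxia element stood in 7 of the 11 and in 43.8% of all. Neither an E2F element (2.33% of all windows) nor the amino acid response core (4.04%) was found in the 11, which says only that these letters are not in these windows.

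The deposited levels are MAS5 signals, a linear probe set intensity. For log2 fold changes an offset of 50.02 was added to each signal before taking log2. They are Rb null minus wild type, are given ± SE, and understate the change of dim genes. Means are given ± SD. A gene was tested when its brightest probe set had a mean signal above 150.1, and it is said to have risen or fallen only at a limma adjusted p below 0.05 over all 6793 tested probe sets. Across probe sets, which are not independent, pairs of arrays of one genotype had r of 0.985 to 0.990 and pairs of different genotype had r of 0.979 to 0.984. The brightest probe set of Rb1, the gene removed in the Rb null embryos, read 139, 142 and 127 in the 3 Rb null livers, against 791, 754 and 706 in the 3 wild type livers. Rb null livers were thus far below wild type livers, although where this probe set lies relative to the deleted part is not known here. The labels give no batch or date.

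Markers of the cell types of the fetal liver were read on the same arrays. For comparison, 13.1% of all tested genes rose, 9.50% fell and 41.2% did not overlap between the genotypes. At an unadjusted limma p below 0.05, 1091 of all 5273 tested genes were higher and 832 lower. Fewer cells of a type and less RNA per cell cannot be told apart in whole livers. Of 12 erythroid markers, 7 fell and 0 rose by limma (0 also at an unadjusted p below 0.05), and their summed signal was 77384 to 84242 in Rb null livers and 93944 to 105511 in wild type livers. All 12 had mean signals above 500.2, and with the filter at that level 17.1% of all tested genes fell. Of 16 hepatoblast markers, 2 rose and 2 fell, with sums of 57601 to 60282 in Rb null livers and 59188 to 63991 in wild type livers, which overlap. Of the tested markers, 7 of 13 for mesenchyme rose (sums of 18118 to 20162 in Rb null livers and 14179 to 14710.4 in wild type livers), 4 of 9 for endothelium (5756 to 6273 in Rb null livers and 4539.6 to 4715 in wild type livers), 3 of 9 for macrophages (6005 to 6440.3 in Rb null livers and 5357 to 5649 in wild type livers), 3 of 4 for megakaryocytes (2647 to 3037 in Rb null livers and 1579.8 to 1717 in wild type livers) and 5 of 8 for granulocytes (11819 to 11929 in Rb null livers and 9111 to 9226 in wild type livers). The sums of all but the hepatoblast list did not overlap between the genotypes, and Vwf stands in both the endothelial and the megakaryocyte list. Below the signal filter, in the sums but not tested, were 3 macrophage, 3 megakaryocyte, 3 mesenchyme, 2 granulocyte and 1 endothelial markers. Of these, the macrophage marker Marco was lower without overlap (104.9, 93.2 and 66 in Rb null livers, 155.5, 176.5 and 162.4 in wild type livers). The mesenchyme marker Des was higher without overlap, and the others overlapped. The labelled tissue was checked on the erythroid markers Alas2 and Klf1 and the hepatoblast markers Alb and Afp. Their means over the 6 arrays, 5708, 5559.7, 14794 and 714, all lay above the signal filter. What part these shifts have in the changes of Slc genes was not tested.

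Of the 150 Slc genes, 83 passed the signal filter, and of these 6 rose, 6 fell and 71 did not pass the test. The called share was 14.5%, against 22.6% of all 5273 tested genes. Those that rose made up 7.23% of tested Slc genes, against 13.1% of all tested genes, and those that fell made up 7.23%, against 9.50%. The median log2 fold change was 0.03 for the Slc genes and 0.02 for all tested genes. On their brightest probe sets, the changes of the tested Slc genes were small, from -0.48 to 0.58. None of these changed at least 2-fold, as 31 of all tested genes did. All 3 values of one genotype lay beyond all 3 of the other for 28 Slc genes (33.7%), against 41.2% of all tested genes. Of these, 18 were higher and 10 lower, where 23.5% and 17.6% of all tested genes were. Among the higher, Slc4a3, Slc8a1 and Slc30a4 had wild type means below the signal filter (130, 142 and 145). Among the lower, Slc22a4 had an Rb null mean below it (130). These genes passed the filter only through the genotype in which they were higher. With all arrays set to the same median signal, 2 Slc genes were higher (2.41%) and 11 lower (13.3%), against 6.94% and 20.7% of all tested genes, while the median log2 fold changes moved to -0.09 for the Slc genes and -0.10 for all tested genes. Leaving out Rb null embryo 2 or Rb null embryo 3 gave 3 higher Slc genes each (3.61%), where 7.95% and 10.5% of all tested genes were higher. Leaving out wild type embryo 3 gave 3 lower Slc genes (3.61%), where 4.85% of all tested genes were lower.

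**Figure D1:**
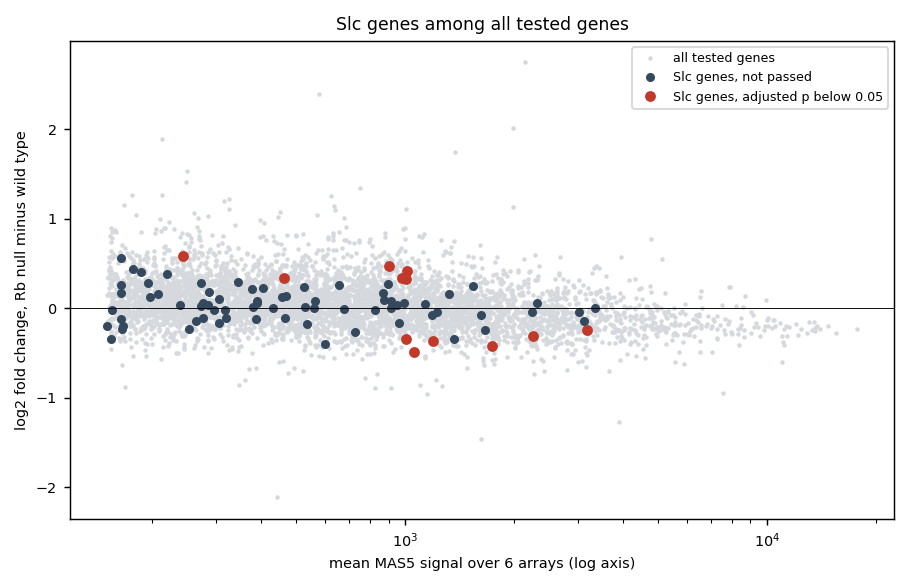
Log2 fold change (Rb null minus wild type) against the mean MAS5 signal over the 6 arrays on a log axis, with 1 point per tested gene. Grey points are all 5273 tested genes, dark points the 71 Slc genes that did not pass and red points the 12 that did. The Slc genes lie between -0.48 and 0.58, inside the spread of all genes.

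Among carriers of amino acids, which feed protein synthesis and, through glycine, haem synthesis, 13 of 28 genes were tested, of which 2 rose, 1 fell and 10 did not pass. Slc38a4 encodes a sodium-coupled neutral amino acid transporter (SNAT4) found mainly in liver, from an imprinted gene. Its signals were 1039, 1059 and 1069 in the 3 Rb null livers, against 761, 771 and 711 in the 3 wild type livers. Every Rb null liver was above every wild type liver, and the level was 1.39-fold higher (log2 fold change 0.47 ± 0.06, adjusted p = 0.00179 by limma). Slc38a10, a less studied member of the same family, read 1084, 1059 and 1165 in the 3 Rb null livers, against 798, 902 and 879 in the 3 wild type livers, again without overlap (log2 fold change 0.34 ± 0.07, adjusted p = 0.0124). The Slc38a10 call was lost only after median scaling (0.21, adjusted p = 0.0765).

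Slc38a5, a glutamine transporter (SNAT5) of the same family, moved the other way. It read 806, 1077 and 747 in the 3 Rb null livers, against 1135, 1412 and 1165 in the 3 wild type livers, and the highest Rb null embryo lay just below the lowest wild type embryo (log2 fold change -0.48 ± 0.14, adjusted p = 0.0377). The call did not survive leaving out Rb null embryo 1 (adjusted p = 0.119), Rb null embryo 3 (0.0942), wild type embryo 1 (0.0572), wild type embryo 2 (0.098) or wild type embryo 3 (0.0699). It was also lost when no filter (0.0781) or no intensity trend (0.0583) was used. Of the 12 erythroid markers, 7 fell in the same livers, where 9.50% of all tested genes fell. Any link between these markers and Slc38a5 was not tested. Slc38a2, the SNAT2 transporter of the family, was picked for naming after its values were seen because it lay just outside the threshold. It averaged 1672 ± 118 in Rb null livers and 1399.9 ± 103 in wild type livers (0.25 ± 0.08, adjusted p = 0.0501).

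Of the heteromeric transporters, in which a heavy chain anchors a catalytic light chain, the large neutral amino acid transporter gene Slc7a5 read 2652, 2994 and 3263 in the 3 Rb null livers, against 2884, 3749 and 3224 in the 3 wild type livers. The groups overlapped (log2 fold change -0.14 ± 0.11, adjusted p = 0.383). Its heavy chain gene Slc3a2, named after its values were seen, also overlapped, at 2975 ± 208 in Rb null livers and 3066 ± 293 in wild type livers (-0.04 ± 0.08, adjusted p = 0.768). Slc6a9, the glycine transporter GlyT1 that erythroblasts use for haem synthesis, was likewise named after its values were seen. It averaged 1523 ± 171 in Rb null livers and 1811 ± 153 in wild type livers (-0.24 ± 0.09, adjusted p = 0.0925) and did not pass. The remaining tested amino acid carriers (Slc1a4, Slc3a1, Slc6a6, Slc6a13, Slc7a7 and Slc7a9) did not pass either. Of these, the light chain gene Slc7a7 of system y+L, named after its values were seen, read 232, 222 and 203 in the 3 Rb null livers, against 128, 144 and 191 in the 3 wild type livers. The groups did not overlap (log2 fold change 0.41 ± 0.14, adjusted p = 0.0672). The glutamine importer gene Slc1a5 (ASCT2) lay just below the signal filter, at 136, 97.3 and 135 in the 3 Rb null livers, against 177, 169 and 154 in the 3 wild type livers, without overlap and not tested. The cystine importer gene Slc7a11 was dimmer, at 35.6 ± 9.17 in Rb null livers and 29.4 ± 7.57 in wild type livers.

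All 4 genes of the Slc38 family were tested, of which 2 rose and 1 fell, with changes from -0.48 to 0.47. Of all tested genes, 13.1% rose and 9.50% fell. The Slc6 family carries glycine, taurine, GABA, creatine and monoamines. Of its 4 tested genes, none passed by limma (2 at an unadjusted p below 0.05), and the changes ran from -0.24 to 0.08. At that unadjusted level, 1091 of all 5273 tested genes were higher and 832 lower.

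**Figure D2:**
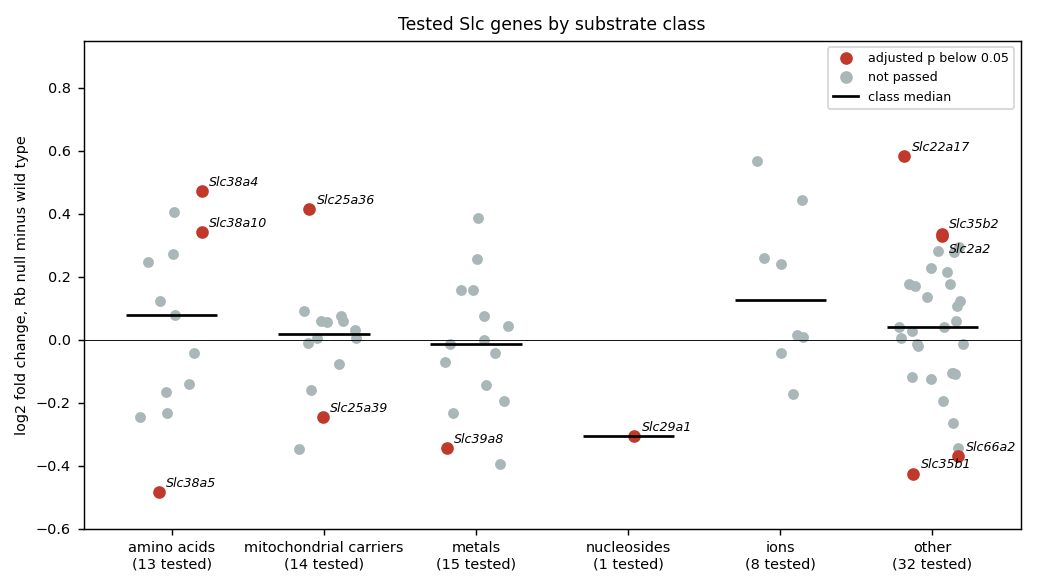
Log2 fold change (Rb null minus wild type) of the 83 tested Slc genes by substrate class, with 1 point per gene, red at a limma adjusted p below 0.05 and grey otherwise, and a black line at each class median. The called genes lie on both sides of 0 among amino acid carriers, mitochondrial carriers and others.

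Mitochondrial carriers of the Slc25 family exchange metabolites, nucleotides and cofactors across the inner membrane. Of 14 tested of 20 genes, 1 rose, 1 fell and 12 did not pass, with a class median of 0.02. Slc25a39, the carrier that brings glutathione into mitochondria and is needed for haem synthesis in red cell precursors, fell. It read 2957, 2819.8 and 2940.2 in the 3 Rb null livers, against 3421, 3388 and 3559.6 in the 3 wild type livers. Every Rb null liver lay below every wild type liver, but the fall was small (log2 fold change -0.25 ± 0.05, adjusted p = 0.0113). It shrank to -0.14 after quantile normalization, where the call was lost (adjusted p = 0.0705). Of the 12 erythroid markers, 7 fell in the same livers, where 9.50% of all tested genes fell. Any link between these markers and Slc25a39 was not tested.

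Slc25a36, a carrier of pyrimidine nucleotides, rose. Its signals were 1077, 1148 and 1251 in the 3 Rb null livers, against 857, 736 and 992 in the 3 wild type livers, with the highest wild type embryo not far below the lowest Rb null embryo (log2 fold change 0.41 ± 0.11, adjusted p = 0.028). The call was lost after median scaling (adjusted p = 0.117), without the filter (0.0569), and without Rb null embryo 1 (0.0506), Rb null embryo 2 (0.076), Rb null embryo 3 (0.0745), wild type embryo 1 (0.0696) or wild type embryo 2 (0.058). The ADP/ATP carrier gene Slc25a4, the brightest probe set of the class, read 3400.3, 3296 and 3336 in the 3 Rb null livers, against 3429, 3170.1 and 3406 in the 3 wild type livers. These values overlapped, with a difference near 0 (log2 fold change 0.00 ± 0.05, adjusted p = 0.962) whose sign turned after median scaling (-0.13). The sign also turned without Rb null embryo 1 (-0.01) or wild type embryo 2 (-0.03).

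Slc25a28, which encodes the mitochondrial iron importer mitoferrin 2, was named after its values were seen. It averaged 399 ± 44.1 in Rb null livers and 383 ± 106 in wild type livers (0.08 ± 0.17, adjusted p = 0.791), and its groups overlapped. The ornithine carrier gene Slc25a15, also named after its values were seen, varied among wild type embryos. It read 1219.6, 1332 and 971 in the 3 Rb null livers, against 1202, 2189 and 1268 in the 3 wild type livers, so that wild type embryo 2 alone stood above the other 5 (log2 fold change -0.35 ± 0.21, adjusted p = 0.284).

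The citrate carrier gene Slc25a1 (0.06 ± 0.07) and the second ADP/ATP carrier gene Slc25a5 (-0.08 ± 0.07), both named after their values were seen, did not pass. The Slc25a3 probe set, for the phosphate carrier, read 44.5 ± 2.21 in Rb null livers and 43.0 ± 7.19 in wild type livers and was not tested.

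Carriers of metals include the zinc importers of the Slc39 family, the zinc exporters of the Slc30 family and the copper importer. Of 15 tested of 16 genes, 1 fell, 0 rose by limma (1 was higher at an unadjusted p below 0.05) and 14 did not pass, with a class median of -0.01. At that unadjusted level, 1091 of all 5273 tested genes were higher and 832 lower. Slc39a8, an importer of zinc, manganese and iron (ZIP8), fell. It read 947, 886 and 813 in the 3 Rb null livers, against 1123, 1152 and 1119 in the 3 wild type livers. The groups did not overlap and the wild type livers were close together (log2 fold change -0.34 ± 0.07, adjusted p = 0.0111). The call held in all 18 alternatives, with adjusted p values from 0.00246 to 0.0377.

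The 5 zinc exporter genes of the Slc30 family were all tested. None passed by limma (0 also at an unadjusted p below 0.05), and their changes ran from -0.23 to 0.26. Of the 7 tested Slc39 genes, 3 had a positive and 4 a negative change, from -0.34 to 0.39.

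The copper importer gene Slc31a1 (CTR1) gave different readings on its 2 probe sets. The brighter probe set read 1125, 1258 and 1232 in the 3 Rb null livers, against 1293, 1232 and 1201 in the 3 wild type livers, and the groups overlapped (log2 fold change -0.04 ± 0.06, adjusted p = 0.686). The dimmer one read 669, 712 and 703 in the 3 Rb null livers, against 1218, 1177 and 1215 in the 3 wild type livers. On it every Rb null liver lay far below every wild type liver (log2 fold change -0.75 ± 0.06, adjusted p = 0.000227), which was the largest change in size of the 94 tested Slc probe sets. The dimmer probe set passed in all 17 alternatives that gave it a value, with changes from -0.88 to -0.68. The mean of the 2 probe sets gave -0.40 with adjusted p = 0.00299. Which part of the transcript each probe set reads is not known here.

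Slc39a4, a zinc importer best known from the intestine (ZIP4), also gave different readings. Its brighter probe set, whose name carries a suffix letter for probes picked under relaxed design rules, read 1227, 1075 and 1159 in the 3 Rb null livers, against 1306, 1265 and 1079 in the 3 wild type livers and overlapped (log2 fold change -0.07 ± 0.09, adjusted p = 0.605). The dimmer one, without such a letter, read 565, 572 and 608 in the 3 Rb null livers, against 395, 379 and 402 in the 3 wild type livers and did not overlap (log2 fold change 0.51 ± 0.07, adjusted p = 0.00262). Leaving out probe sets with suffix letters therefore turned the sign for this gene to 0.51, and the mean of both gave 0.22 (adjusted p = 0.0421). Slc39a7, a zinc transporter of the endoplasmic reticulum and Golgi, averaged 1393 ± 94.5 in Rb null livers and 1246 ± 132 in wild type livers (0.16 ± 0.09, adjusted p = 0.227) and did not pass. Slc48a1, the haem transporter HRG1, was named after its values were seen. It read 455, 562 and 517 in the 3 Rb null livers, against 585, 652 and 841 in the 3 wild type livers, without overlap, but did not pass the test (log2 fold change -0.40 ± 0.13, adjusted p = 0.0656).

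**Figure D3:**
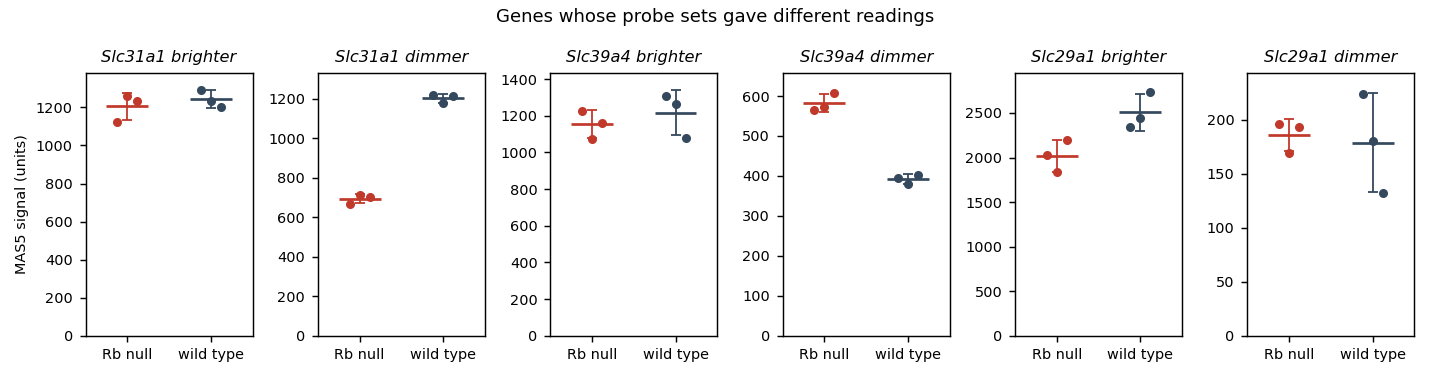
MAS5 signal of each embryo on the brighter and the dimmer tested probe set of Slc31a1, Slc39a4 and Slc29a1, with Rb null livers in red at the left and wild type livers in dark blue at the right of each panel, points for embryos, a line at the mean and bars of 1 SD (n = 3 each). The genotypes separate on the dimmer probe sets of Slc31a1 and Slc39a4 and on the brighter one of Slc29a1, and overlap on the other 3.

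In all, 11 Slc genes had several tested probe sets. The sign of the change was the same on all of them for 5 genes and differed for 6. By probe set in place of gene, 7 rose and 7 fell of 94, while 12.8% rose and 9.08% fell of all 6793 tested probe sets.

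Of the equilibrative nucleoside transporters, which let nucleosides pass the membrane in both directions, Slc29a1 (ENT1, abundant in red cells) was the 1 tested gene of 2. Its brighter probe set read 2026, 1834 and 2192 in the 3 Rb null livers, against 2339, 2447 and 2734 in the 3 wild type livers. Every Rb null liver lay below every wild type liver (log2 fold change -0.31 ± 0.08, adjusted p = 0.0322). A much dimmer probe set with a suffix letter overlapped, at 186 ± 14.9 in Rb null livers and 179 ± 46.0 in wild type livers (0.06 ± 0.16, adjusted p = 0.814), and the mean of both did not pass (-0.12, adjusted p = 0.317). The call did not survive leaving out Rb null embryo 1 (adjusted p = 0.0843), Rb null embryo 2 (0.0973), wild type embryo 2 (0.0599) or wild type embryo 3 (0.1). Quantile normalization (0.0783), cyclic loess (0.0611), no filter (0.0636) and no intensity trend (0.0596) ended it as well. Of the 12 erythroid markers, 7 fell in the same livers, where 9.50% of all tested genes fell. Any link between these markers and Slc29a1 was not tested. The other gene, Slc29a2 (ENT2), lay below the signal filter at 64.9 ± 53.0 in Rb null livers and 89.9 ± 15.7 in wild type livers.

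Carriers of ions set cell volume, pH and the gradients that other carriers use. Of 8 tested of 19 genes, none passed by limma, with 3 higher and 0 lower at an unadjusted p below 0.05. Of all 5273 tested genes, 1091 were higher and 832 lower at that level. The median of 0.13 is that of genes which passed the filter. For Slc4a3 and Slc8a1 the wild type means, 130 and 142, lay below it, so they passed through their higher Rb null signals. The median and the count of 3 higher genes, which includes Slc8a1, lean to positive changes for that reason. Slc12a2, the sodium-potassium-chloride cotransporter NKCC1, read 667, 710 and 791 in the 3 Rb null livers, against 640.4, 567 and 577 in the 3 wild type livers without overlap (log2 fold change 0.26 ± 0.09, adjusted p = 0.062). Slc12a7, a potassium-chloride cotransporter, averaged 575 ± 61.3 in Rb null livers and 478 ± 27.0 in wild type livers, also without overlap (0.24 ± 0.09, adjusted p = 0.0982). The largest positive changes of the class were those of dimmer genes, named after their values were seen. Slc4a3, an anion exchanger, read 202, 189 and 202 in the 3 Rb null livers, against 187, 158 and 45.0 in the 3 wild type livers, where wild type embryo 3 stood far below the other 5 (log2 fold change 0.57 ± 0.30, adjusted p = 0.224). Slc8a1, the sodium-calcium exchanger NCX1, read 181, 260.2 and 192 in the 3 Rb null livers, against 152, 172 and 103 in the 3 wild type livers without overlap (log2 fold change 0.44 ± 0.18, adjusted p = 0.108). The phosphate importer gene Slc20a1 averaged 2206 ± 77.1 in Rb null livers and 2276 ± 119.9 in wild type livers (-0.04 ± 0.06, adjusted p = 0.652). Its groups overlapped, and the sign turned after quantile normalization (0.03) and after cyclic loess normalization (0.02).

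Among the other carriers, 32 of 65 genes were tested, of which 3 rose, 2 fell and 27 did not pass, with a median of 0.04. Slc22a17, known as a receptor for the siderophore-binding protein lipocalin 2, had the largest rise of the Slc genes. It read 269, 307 and 328 in the 3 Rb null livers, against 178, 199.7 and 175 in the 3 wild type livers without overlap (log2 fold change 0.58 ± 0.11, adjusted p = 0.00739). The call held in all 17 alternatives that tested it, and it was too dim for the strictest filter. Slc2a2, the glucose transporter GLUT2 of hepatocytes, read 1121, 1134 and 1117 in the 3 Rb null livers, against 963, 765 and 939.9 in the 3 wild type livers. The Rb null livers were close together and all above the wild type livers (log2 fold change 0.33 ± 0.09, adjusted p = 0.0317). The Slc2a2 call did not survive leaving out Rb null embryo 1 (adjusted p = 0.0843), Rb null embryo 2 (0.0904), Rb null embryo 3 (0.0644) or wild type embryo 3 (0.0506), and it was also lost after median scaling (0.172), without the filter (0.0592) and without an intensity trend (0.051). Of the 16 hepatoblast markers, 2 rose and 2 fell in the same livers, where 13.1% of all tested genes rose and 9.50% fell. The median change was 0.11 for these markers and 0.02 for all tested genes. Any link between these markers and Slc2a2 was not tested.

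Slc35b2, which brings the sulfate donor PAPS into the Golgi, rose just past the threshold. It read 598, 466 and 502 in the 3 Rb null livers, against 401, 428 and 375 in the 3 wild type livers without overlap (log2 fold change 0.34 ± 0.10, adjusted p = 0.0498). Its call was lost in 13 of 17 alternatives, among them the removal of any 1 of the 6 embryos (adjusted p values from 0.0508 to 0.141).

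Slc35b1, a nucleotide transporter of the endoplasmic reticulum, fell. It read 1432, 1469 and 1539 in the 3 Rb null livers, against 1935, 1995 and 2087 in the 3 wild type livers, and the groups did not overlap (log2 fold change -0.43 ± 0.06, adjusted p = 0.00198). The Slc35b1 call held in all 18 alternatives, with changes from -0.56 to -0.39. Slc66a2, a protein of the PQ-loop family, read 943, 1031 and 1137 in the 3 Rb null livers, against 1399, 1205 and 1459 in the 3 wild type livers without overlap (log2 fold change -0.37 ± 0.09, adjusted p = 0.0252). The Slc66a2 call did not survive leaving out Rb null embryo 1 (adjusted p = 0.0835), Rb null embryo 2 (0.0731), wild type embryo 1 (0.0761) or wild type embryo 3 (0.0821), and it was lost without the filter (0.0501).

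Of 8 tested genes of the Slc35 family, to which Slc35b1 and Slc35b2 belong and which mostly carries nucleotide sugars, 1 rose (Slc35b2), 1 fell (Slc35b1) and 6 did not pass. Counting the called genes, 2 had a positive and 6 a negative change. Of all tested genes, 13.1% rose and 9.50% fell.

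Several carriers of this group were named after their values were seen, for their place in liver or red cell metabolism, and did not pass. The folate carrier gene Slc19a1 averaged 659 ± 91.9 in Rb null livers and 797 ± 28.5 in wild type livers (-0.26 ± 0.10, adjusted p = 0.0871). The lactate and pyruvate carrier gene Slc16a1 read 374, 394 and 339 in the 3 Rb null livers, against 416, 427 and 370.4 in the 3 wild type livers, and its groups overlapped (-0.12 ± 0.09, adjusted p = 0.4). Slc37a4, the glucose-6-phosphate transporter of the endoplasmic reticulum, averaged 383 ± 80.0 in Rb null livers and 307 ± 89.2 in wild type livers (0.29 ± 0.20, adjusted p = 0.327). Slc27a2, a very long chain acyl-CoA synthetase, averaged 964 ± 101 in Rb null livers and 932 ± 10.1 in wild type livers (0.04 ± 0.08, adjusted p = 0.753).

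**Figure D4:**
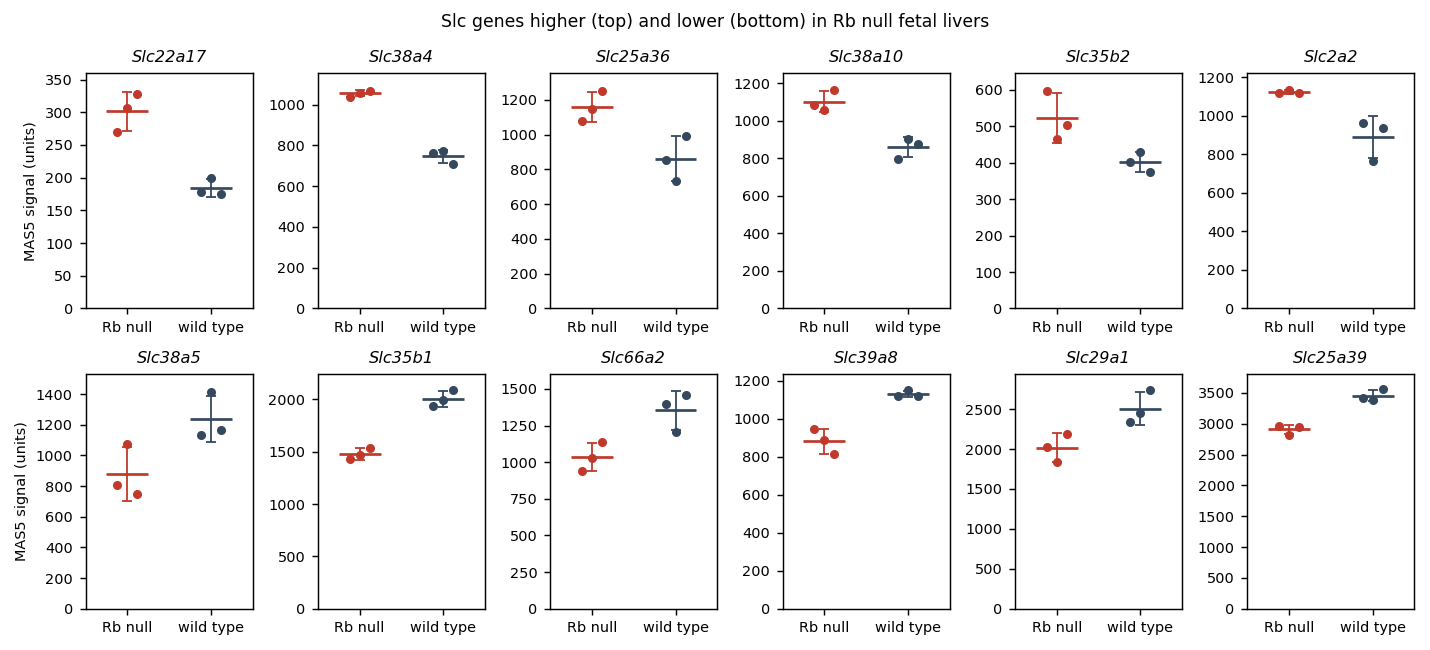
MAS5 signal of each embryo for the 6 Slc genes that rose (top) and the 6 that fell (bottom), with Rb null livers in red at the left and wild type livers in dark blue at the right of each panel. Points are embryos, lines the means and bars 1 SD (n = 3 each). The genotypes do not overlap in any of the 12 panels, and the gap is narrow for Slc38a5, Slc35b2, Slc25a36, Slc66a2 and Slc29a1.

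The other 67 Slc genes lay below the signal filter, with mean signals from 3.37 to 145 and a median of 54.1, and whether they were above background was not tested. When no filter was used, 2 of the 67 passed the test, and both were named after their values were seen. The share that passed among all genes below the filter was not counted. Of all 150 Slc genes, bright and dim, 3.33% were then higher and 2.00% lower, against 6.73% and 4.22% of all 8251 genes. Slc7a3, a transporter of arginine and lysine, read 146, 100.1 and 99.3 in the 3 Rb null livers, against 46.6, 36.5 and 27.3 in the 3 wild type livers (0.92 ± 0.16, adjusted p = 0.0147 with no filter). Slc2a5, the fructose transporter GLUT5, read 76.7, 94.1 and 129.9 in the 3 Rb null livers, against 19.1, 56.5 and 26.8 in the 3 wild type livers (0.85 ± 0.20, adjusted p = 0.0453 with no filter). These are larger changes than that of any tested Slc gene, but at signals where the size is uncertain.

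**Figure D5:**
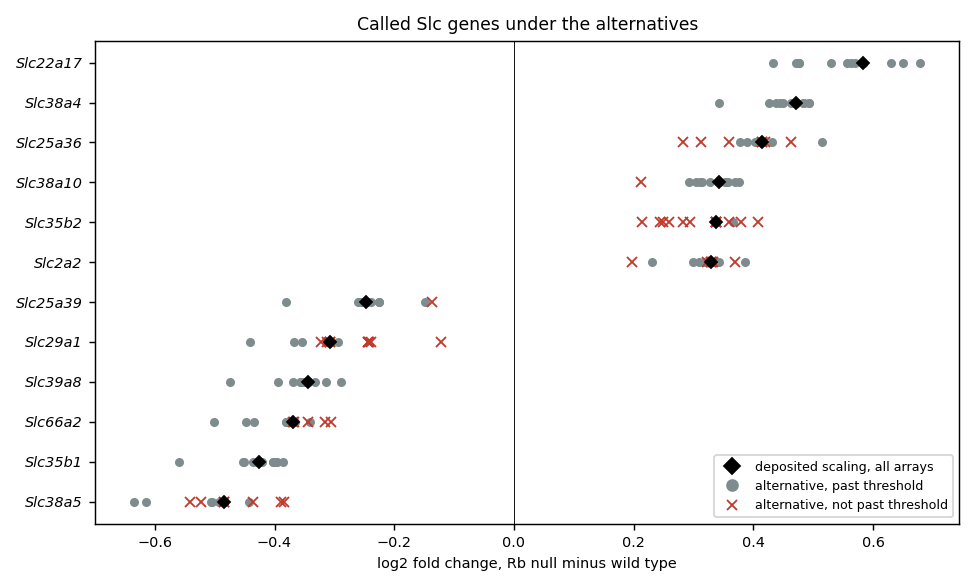
Log2 fold change (Rb null minus wild type) of the 12 called Slc genes with the deposited scaling and all arrays (black diamonds) and under the alternatives (grey circles where still past the threshold, red crosses where not). All 12 genes stay on their side of 0, and Slc22a17, Slc38a4, Slc39a8 and Slc35b1 have no cross.

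Of the Slc genes left out by the rule, 4 were on the array. The glucose transporter genes went opposite ways, with Slc2a1 at -0.39 ± 0.10, adjusted p = 0.0256 and Slc2a3 at 0.82 ± 0.12, adjusted p = 0.00294, while the red cell anion exchanger gene Slc4a1 (-0.49 ± 0.06, adjusted p = 0.00189) and the iron transporter gene Slc11a2 (-0.35 ± 0.10, adjusted p = 0.0439) fell. Membrane transport genes outside the Slc class were read from a list of ABC transporters, P-type ATPases and aquaporins. Of 25 tested of 47 on the array, 6 rose and 2 fell, with a median of 0.09. Of all tested genes, 13.1% rose and 9.50% fell. By kind, 1 of 11 ABC transporters rose and 1 fell, and 3 of 12 ATPases rose and 1 fell. Both tested aquaporins rose, while 5 of the 7 on the array lay below the signal filter. ABCG2, an exporter of haem precursors and drugs encoded by Abcg2, averaged 2184 ± 137 in Rb null livers and 2855 ± 73.9 in wild type livers (-0.38 ± 0.06, adjusted p = 0.00398). Atp2a3, a calcium pump of the endoplasmic reticulum, averaged 1254 ± 86.9 in Rb null livers and 834 ± 31.9 in wild type livers (0.56 ± 0.07, adjusted p = 0.00153). Aqp1, a water channel, and Aqp9, a channel for water and glycerol in hepatocytes, rose by 0.61 ± 0.09 and 0.51 ± 0.10 on the log2 scale. Abcg2, Atp2a3, Aqp1 and Aqp9 were named after their values were seen.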

How the data were processed

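RNA from 6 fetal livers was measured on 1 Affymetrix mouse array per embryo. Per the submitters' processing notes, the authors computed the deposited intensity values with MAS5, with no version stated. Per the labels' protocols, Trizol total RNA (6 ug) was made into biotin-labelled cRNA. The values were linear and all arrays had a 2% trimmed mean near 500.2, a sign of common scaling. Detection calls were not used here. The deposited intensities were tested with limma 3.58.1 in R 4.3.3 on the log2 scale, with an offset of 50.02 (0.1 of the trimmed mean), a signal filter of 150.1 (0.3 of it), an intensity trend and Benjamini-Hochberg adjustment over 6793 probe sets. The 66 array controls were left out. Platform annotation gave 10833 probe sets 1 symbol, 396 several and 1193 none. Of those with several symbols, 1 included an Slc symbol and was not used. A gene stood for its brightest probe set. All 150 symbols matched RefSeq genes, and 124 had a promoter window. Embryos are the replicates.

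Members, classes and lists were chosen with earlier results of these data known. Named by rule were all called genes, the brightest probe set of each class, genes with several tested probe sets of which 1 passed, and the 2 smallest p values of a class without calls. The alternatives were other scalings, offsets, filters, variance models, probe set rules, the replicate number as a block, and leaving out each embryo. The procedure was tested on simulated data.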

Additional observations from a re-analysis of the deposited data

How the results depend on the processing

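All 12 called Slc genes kept their sign in every alternative that gave a value, 6 kept their call on leaving out any 1 embryo, and 4 kept it throughout. The count of higher genes was 6 (13.1% of all tested genes were higher) and became 2 after median scaling (6.94% of all), 8 with the mean of probe sets (13.6%), 8 without suffix letters (14.2%), 4 without an intensity trend (12.4%), and 3 to 5 on leaving out 1 embryo (7.95% to 10.5%). The count of lower genes was 6 (9.50% of all) and became 11 after median scaling (20.7%), 4 without an intensity trend (6.77%), and 3 to 6 on leaving out 1 embryo (4.85% to 8.14%). Without a filter 150 Slc genes were tested in place of 83, and 3 were lower (2.00%, against 4.22% of all). Counting a gene when any tested probe set passed, a rule chosen after seeing the data, gave 7 higher (14.2% of all) and 7 lower (9.79%). With the replicate block, 5 were higher (12.1%) and 7 lower (9.25%). Same-numbered embryos correlated in their deviations with -0.06, 0.05 and 0.27. Differently numbered embryos were not compared in this way, so whether the numbers pair the embryos is not settled. Among genes that did not pass, signs turned for Slc20a1 after quantile normalization (0.0347) and cyclic loess (0.0206), and for Slc25a4 after median scaling (-0.131). On leaving out 1 embryo Slc25a4 ranged from -0.0310 to 0.0248 and the brighter Slc31a1 probe set from -0.0733 to 0.0035. The Slc39a4 sign turned with the mean of its probe sets (0.22) and without suffix letters (0.51), since its probe sets differ. The cause of the other changes was not tested. Bright probe sets leaned lower, with a median of -0.15 in the brightest 10% of genes and 0.09 in the dimmest 10%. Signals under 150.1 limit what can be read from 67 Slc genes.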
